A study of Mus musculus with 36 samples.

Results

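The genotype by fasting interaction in liver asks whether mice that cannot break down stored fat in white adipose tissue give the same hepatic transcript response to fasting as control mice. It was taken as a difference of differences: the fasted minus fed change in AAKO mice minus the fasted minus fed change in CTRL mice. The 24 of the 36 arrays of the series that carry the titles of these 4 groups were used, with 6 arrays, each from 1 mouse, in every group. All mice were males of the C57Bl/6J strain. In AAKO mice the gene Pnpla2 is missing from white fat, which removes adipose triglyceride lipase (ATGL) there, and CTRL mice are the controls. The Cre driver and the age of the mice are not given in the sources used here. Fed mice had free access to food and fasted mice had none for 24 h. All were killed 16 h after lights on (ZT16), which falls in the dark phase, and none of the 24 received the beta3-adrenergic agonist CL316243 given elsewhere in the series. The fed groups belong to experiment 2 and the fasted groups to experiment 1. A response to fasting within 1 genotype therefore cannot be told apart from a difference between the experiments, and the interaction is free of such a difference only as far as it was alike in both genotypes.

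In a fasted mammal, ATGL in fat cells starts the release of fatty acids into the blood, and the liver takes them up, oxidises them and turns part of them into ketone bodies. Fatty acids are ligands of the nuclear receptor PPARα, which switches on hepatic genes of fatty acid oxidation and ketogenesis. Low insulin, high glucagon and glucocorticoids act in parallel on genes of glucose output, amino acid breakdown and lipid synthesis, and feeding time also sets the phase of the liver clock.

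RNA was hybridised to 1-colour Agilent arrays, and 24097 genes with a probe above background were tested. Signals are given as log2 values relative to the 75th percentile of the same array, so that 0 is the level of that percentile and a difference of 1 is 2-fold. Differences, their standard errors and adjusted p-values come from limma with Benjamini-Hochberg adjustment over all 24097 genes, and a gene was called where the adjusted p was under 0.05. Probes well above background numbered 33128 to 37200 per array. Of 12 hepatocyte markers 11 were tested, and all were well above background in every group, with a summed signal of 12.95 to 13.25 in fed CTRL, 12.90 to 13.06 in fasted CTRL, 13.01 to 13.13 in fed AAKO and 12.82 to 12.94 in fasted AAKO mice; 4 of the 11 were called lower and 2 higher for the interaction. The summed signal of 9 stellate cell markers was 6.84 to 7.29 in fasted AAKO mice and 6.18 to 6.81 in the others, and 1 was called. That of 6 adipocyte markers was 2.83 to 3.98 in fasted AAKO and 1.99 to 3.71 in the others, with 1 called. For 4 erythroid markers it was 7.91 to 8.57 in fasted AAKO and 8.23 to 10.17 in the others, with 0 called. For 8 lymphocyte markers it was 5.54 to 5.78 and 5.30 to 6.37, with 1 called. Signals were summed before the log2 step, so bright markers weigh most. In the AAKO response 3 stellate markers were called up and 3 down, and 2 adipocyte markers up and 1 down. The part of other cell types in the results was not tested. Bulk tissue cannot tell fewer cells of a type from less RNA per cell. The deletion is in fat, so the liver signal of Pnpla2 does not check the genotype.

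The array of CTRL fasted mouse 2 stood apart. On the first principal component of the 24 arrays, which held 53.3% of the variance, it lay at 66.9 while the other 5 fasted CTRL arrays lay between 5.1 and 16.1, the fasted AAKO arrays between 89.7 and 98 and the fed arrays of both genotypes between -68 and -50. Leaving it out, a step chosen with its position known, raised the number of genes called for the interaction from 8104 to 9158 and lowered the number called for fasting in CTRL from 10547 to 9962. It stayed in the results below, and its effect is given where it moved a count or a class.

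**Figure D1:**
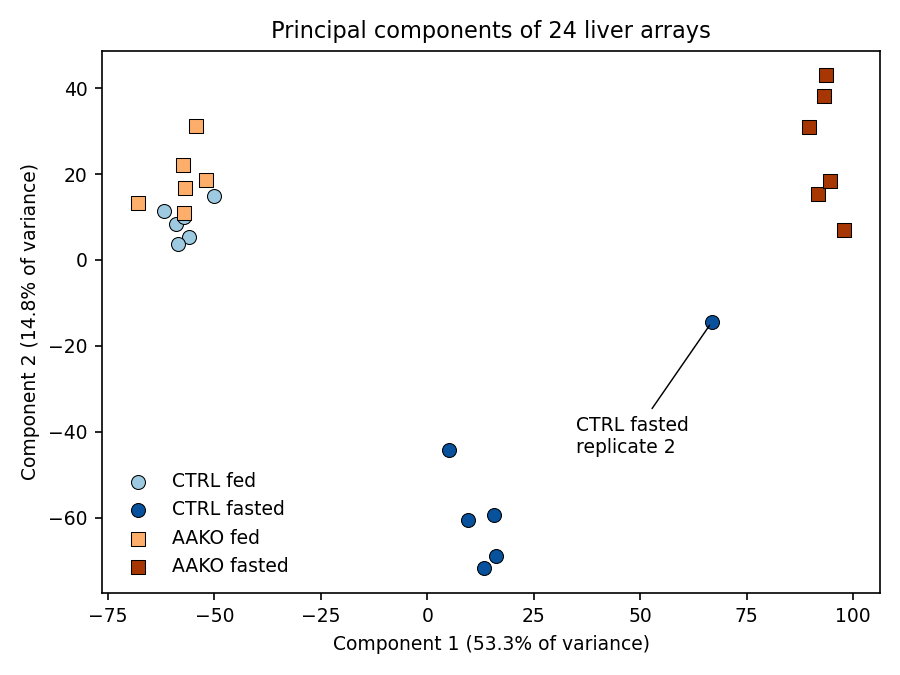
Scores of the 24 arrays on the first 2 principal components of 24074 tested genes, with 1 point per mouse, coloured by group; axes give the score and the share of variance, 53.3% and 14.8%. Fed arrays of both genotypes lie together, fasted AAKO arrays lie farthest from them, and CTRL fasted mouse 2 lies at 66.9 between the other fasted CTRL arrays and the fasted AAKO arrays.

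The interaction was called for 8104 genes, 33.6% of those tested, with 3617 higher (15%) and 4487 lower (18.6%) in the AAKO response than in the CTRL response. Without adjustment 10222 genes had p under 0.05, and 2510 called genes differed by at least 2-fold. Sign and call stayed in place for 6729 genes whichever 1 of the 24 arrays was left out. The CTRL response to fasting was called for 10547 genes (43.8%; 4747 up, 19.7%, and 5800 down, 24.1%), and the AAKO response for 15326 genes (63.6%; 6617 up, 27.5%, and 8709 down, 36.1%). In the authors' deposited value table, which is scaled differently, 56.1% of the CTRL calls were up instead of 45%, so the balance of up against down depends on the scaling. The median AAKO response over all genes was -0.10 here and 0.01 in that table, and list medians should be read against this shift.

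The genotype difference behind the interaction lay mostly in fasted mice. Between the genotypes 19 genes (0.0788%) were called in fed mice and 11848 (49.2%) in fasted mice. Of the 8104 genes called for the interaction, 7934 (97.9%) had a larger genotype difference in fasted than in fed mice, 7823 were themselves called in fasted mice and 7 in fed mice. In a single wash batch of 3 arrays per group, 5070 genes (batch 1) and 3121 (batch 2) were called for the interaction. Of the calls shared with the full fit 0 turned sign. The batch fits use part of the same arrays, so this is no independent check. These comparisons between genotypes share arrays with the interaction and are given as a description of it.

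Responses were sorted by the 3 calls. Among genes called for the interaction, 830 lost the response (called in CTRL, not called in AAKO), 208 had a weakened response, 546 a reversed one, 2939 an amplified one and 3454 gained a response (called in AAKO only), while 127 had neither single response called. Among the rest, 4996 genes kept a response in the same direction in both genotypes and 10997 were undetermined. For 2807 of the kept genes (56.2%) the 95% interval of the interaction lay within 1.5-fold. For the other kept genes the interval reached beyond 1.5-fold, so a larger difference than that was neither called nor excluded. Over all tested genes the median interval reached 0.39 to either side. Of 1209 genes that rose at least 2-fold in fasted CTRL mice, 609 were kept, 248 amplified, 158 lost, 80 weakened and 44 reversed, and 70 were undetermined. Of 1030 that fell at least 2-fold, 611 were kept, 255 amplified, 59 lost, 51 weakened and 14 reversed, and 40 were undetermined. Without CTRL fasted mouse 2 the numbers were 949 lost, 241 weakened, 810 reversed, 2820 amplified, 4210 gained and 4239 kept. Class limits are sharp while the values are not: 59.6% of lost, 54.9% of reversed, 70.8% of amplified and 66.1% of kept genes held their class in all 24 leave-outs.

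**Figure D2:**
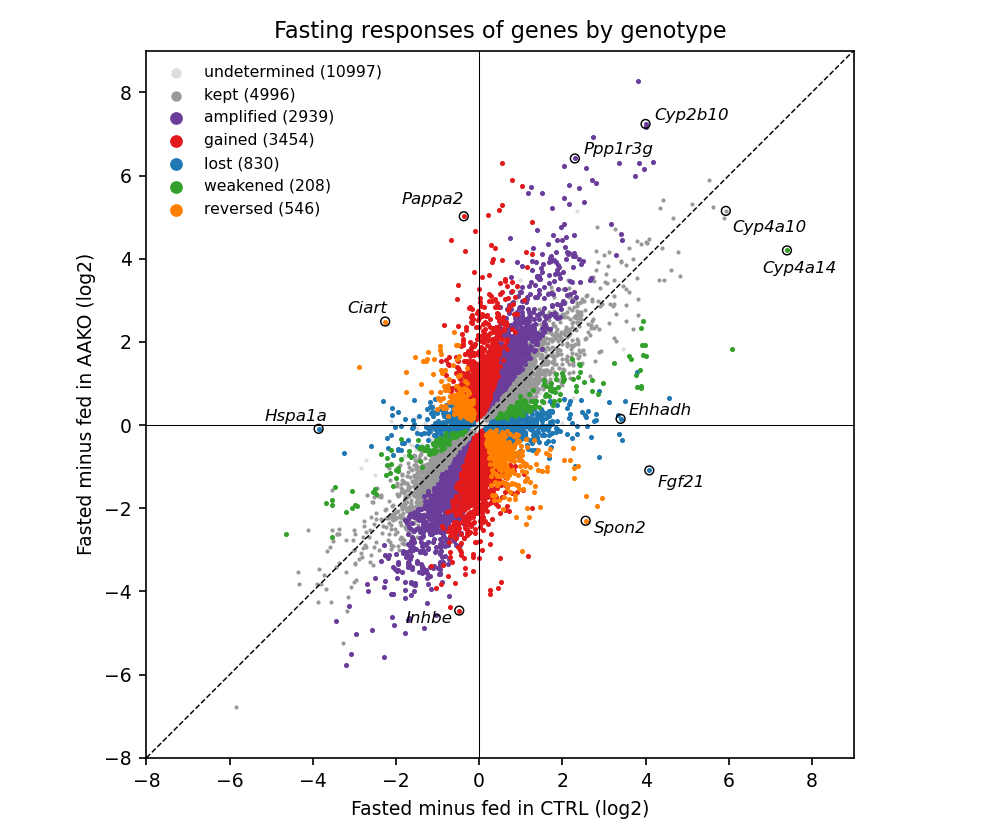
Fasted minus fed log2 difference in CTRL mice (x axis) against the same difference in AAKO mice (y axis), 1 point per gene, coloured by class of response; the 127 genes with neither response called are not drawn. Kept genes follow the diagonal, lost genes lie along the horizontal zero line, gained genes along the vertical zero line, and reversed genes in the upper left and lower right quadrants.

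Genes of fatty acid oxidation had a lower fasting response in AAKO than in CTRL mice. In 21 tested genes of mitochondrial oxidation the median response was 0.65 in CTRL and -0.39 in AAKO mice, and the interaction was called lower for 19 and higher for 0. Of 18 peroxisomal genes 16 were called lower and 0 higher, with medians of 0.87 and -0.45. Over all genes 18.6% were called lower and the medians were -0.05 and -0.10. Together with 7 ketogenesis genes, 46 genes gave 41 calls, 0 of them higher: 19 reversed, 9 lost, 5 weakened, 7 gained (a fall in AAKO mice) and 1 amplified, with 3 kept and 2 undetermined. These lists were drawn up with earlier results of the same data known, so their direction is not independent evidence.

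Ehhadh, the bifunctional enzyme of peroxisomal beta-oxidation (probe at chr16:21761914-21761973, mm9), had signals of 3.37 to 4.48 (median 4.02) in fed CTRL, 6.59 to 7.90 (median 7.39) in fasted CTRL, 3.14 to 3.98 (median 3.72) in fed AAKO and 3.23 to 4.52 (median 3.75) in fasted AAKO mice. All 6 fasted CTRL mice lay above every other mouse, and the 6 fasted AAKO mice overlapped the fed ones. It rose 10.6-fold in CTRL mice (3.40 ± 0.24), its AAKO response of 0.15 ± 0.24 was not called, and the interaction was -3.25 ± 0.34 (SE) with an adjusted p of 1.52e-08. Crot, which moves chain-shortened acyl groups out of peroxisomes, gave 1.42 in CTRL and -0.59 in AAKO mice (interaction -2.01 ± 0.21 (SE)). Acot4, a peroxisomal thioesterase, rose by 1.61 in CTRL mice, and its AAKO response of -0.44 was not called.

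In the mitochondrial list, 8 genes were reversed, 6 gained a fall, 3 were lost, 2 weakened and 2 kept. Acadm, the medium-chain acyl-CoA dehydrogenase, had signals of 6.34 to 6.53 (median 6.47) in fed CTRL, 7.02 to 7.66 (median 7.27) in fasted CTRL, 5.91 to 6.28 (median 6.21) in fed AAKO and 5.40 to 5.85 (median 5.62) in fasted AAKO mice. The 4 groups did not overlap: fasted CTRL mice were highest, then fed CTRL, fed AAKO and fasted AAKO mice. Its interaction was -1.32 ± 0.12 (SE) (adjusted p 2.33e-09). Hadha, the alpha subunit of the trifunctional protein, gave 0.61 in CTRL and -0.58 in AAKO mice, and Cpt2, the inner-membrane carnitine palmitoyltransferase, 0.67 in CTRL and -0.46 in AAKO mice. Cpt1a, the outer-membrane transferase that admits fatty acids to the mitochondrion, was an exception: it rose in both genotypes, by 1.04 in CTRL and 1.33 in AAKO mice, and its interaction of 0.29 had a 95% interval of -0.04 to 0.62.

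Of the 7 ketogenesis genes 6 were called lower and 0 higher, beside 18.6% and 15% of all genes. Their median responses were 0.44 in CTRL and -0.66 in AAKO mice. Acat1, the mitochondrial thiolase that makes acetoacetyl-CoA (probe at chr9:53389868-53389927, mm9), had signals of 4.47 to 4.84 (median 4.51) in fed CTRL, 4.69 to 5.30 (median 5.00) in fasted CTRL, 4.14 to 4.45 (median 4.31) in fed AAKO and 2.70 to 3.46 (median 3.05) in fasted AAKO mice. Every fasted AAKO mouse lay below every other mouse, and fed and fasted CTRL mice overlapped. It rose by 0.44 ± 0.10 in CTRL and fell by 1.23 on the log2 scale in AAKO mice (interaction -1.67 ± 0.14 (SE), adjusted p 4.50e-10). Acat1 is 1 of 3 reversed genes of the list.

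Bdh1, which reduces acetoacetate to beta-hydroxybutyrate, took another course. Its signals were 5.49 to 5.94 (median 5.81) in fed CTRL, 4.33 to 5.73 (median 5.59) in fasted CTRL, 4.87 to 5.69 (median 5.43) in fed AAKO and 0.92 to 2.84 (median 1.61) in fasted AAKO mice. Fed mice and fasted CTRL mice overlapped, while fasted AAKO mice were far below all others. The CTRL response of -0.34 was not called, and the AAKO fall was 12-fold (interaction -3.25 ± 0.35 (SE), adjusted p 2.18e-08). In CTRL mice the lowest value came from fasted mouse 2, and the interaction was -3.47 without it.

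**Figure D3:**
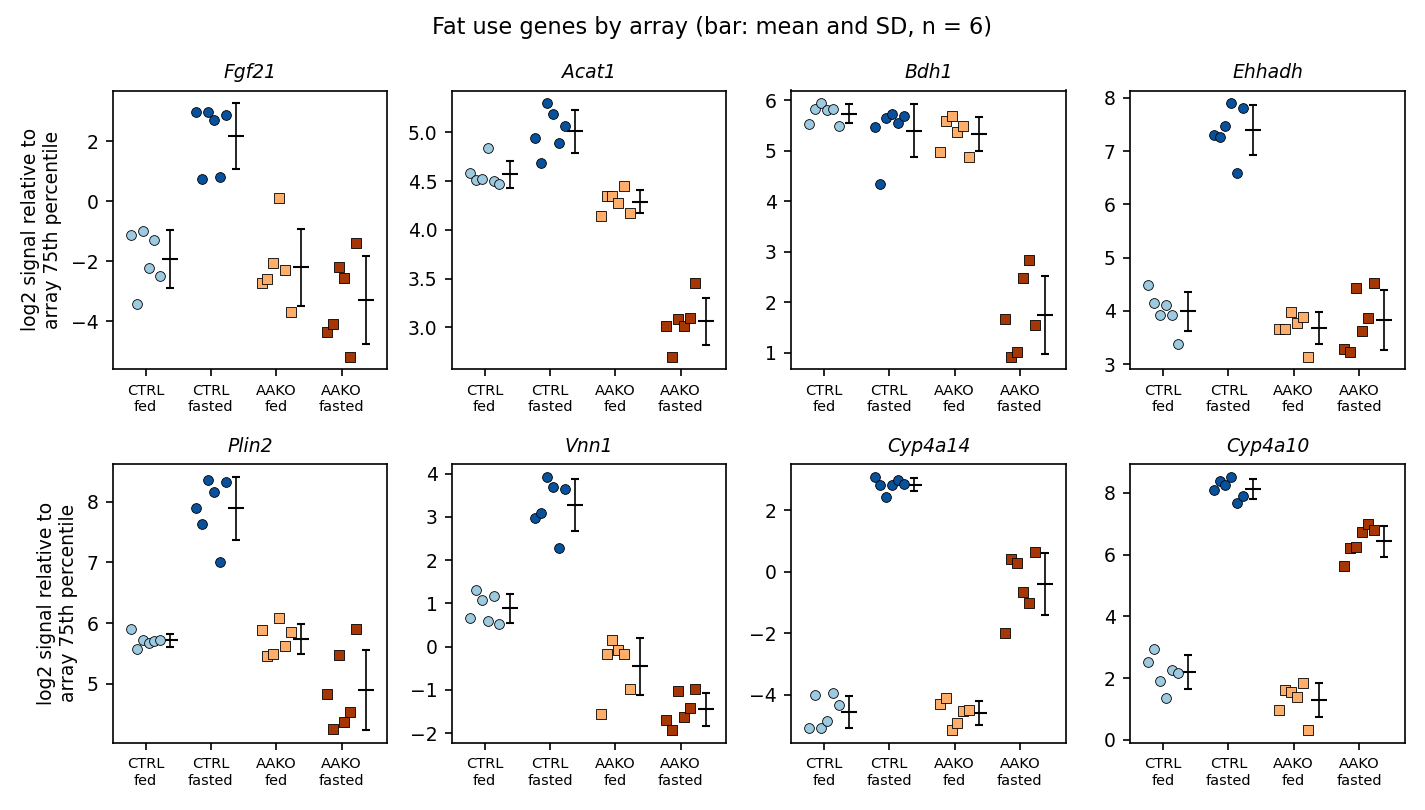
Log2 signal relative to the array's 75th percentile for genes of fat oxidation, ketogenesis and lipid storage, 1 point per mouse and 6 mice per group, with bars for the mean and SD of each group. For Ehhadh the fasted CTRL mice lie at 6.59 to 7.90 and the fasted AAKO mice at 3.23 to 4.52, close to the fed mice at 3.14 to 4.48.

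PPARα targets outside these pathways did not move as a block. Of 24 tested, 10 were called lower and 5 higher, beside 18.6% and 15% of all genes, and 8 were called higher without CTRL fasted mouse 2. On the lower side stood Vnn1, a pantetheinase, with 0.52 to 1.30 (median 0.87) in fed CTRL, 2.29 to 3.93 (median 3.36) in fasted CTRL, -1.55 to 0.16 (median -0.16) in fed AAKO and -1.93 to -0.98 (median -1.52) in fasted AAKO mice. Fasted CTRL mice lay above and fasted AAKO mice below all fed CTRL mice, and the response went from a rise of 2.38 to a fall of 0.99 on the log2 scale (interaction -3.36 ± 0.34 (SE)). Vnn1 is also among the few genes that differed in fed mice, where AAKO minus CTRL was -1.35 (adjusted p 0.0109). Retsat, retinol saturase, rose by 2.26 in CTRL and fell by 0.54 on the log2 scale in AAKO mice. Creb3l3, a transcription factor of hepatic lipid metabolism, was reversed at a small scale, with 0.39 in CTRL and -0.24 in AAKO mice. On the higher side, Angptl4, an inhibitor of lipoprotein lipase, rose by 1.74 in CTRL and 2.88 in AAKO mice, and Txnip, a regulator of glucose uptake, by 1.90 in CTRL and 3.85 in AAKO mice.

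Of 7 microsomal omega-hydroxylase genes 3 kept their response, 1 was weakened and 3 were undetermined. Cyp4a10 had signals of 1.36 to 2.96 (median 2.21) in fed CTRL, 7.66 to 8.52 (median 8.16) in fasted CTRL, 0.32 to 1.85 (median 1.47) in fed AAKO and 5.63 to 6.99 (median 6.49) in fasted AAKO mice. Fasted mice of either genotype were above all fed mice, and fasted AAKO mice were below all fasted CTRL mice. The responses were 61-fold and 35.6-fold, and the interaction of -0.78 was not called (adjusted p 0.188), with a 95% interval of -1.69 to 0.14. Cyp4a31 gave 5.61 in CTRL and 5.25 in AAKO mice, although its second probe had a called interaction of -1.15. Cyp4a14 was the 1 gene of the list that was called, as weakened, with 7.40 in CTRL and 4.20 in AAKO mice. The acyl-CoA thioesterases Acot1, Acot2 and Acot3 were weakened too, with interactions of -2.26, -2.06 and -2.36. Cyp4a and Acot genes have near-identical paralogs, and signal may be shared between their probes.

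Of 18 lipid droplet genes 5 were called higher and 4 lower, not far from the 15% and 18.6% of all genes. Plin2, the droplet coat protein of the hepatocyte, was reversed, with signals of 7 to 8.36 (median 8.03) in fasted CTRL and 4.26 to 5.91 (median 4.69) in fasted AAKO mice. Mgll, which hydrolyses monoacylglycerol, rose by 0.35 in CTRL mice and fell 3.51-fold in AAKO mice, where every fasted mouse lay below every other (interaction -2.16 ± 0.18 (SE), adjusted p 3.60e-10). In the other direction, Hilpda, an inhibitor of ATGL, rose by 1.24 in CTRL and 2.35 in AAKO mice, and Pnpla2 itself rose by 1.57 in CTRL and 3.32 in AAKO mice. Cidec, which promotes droplet fusion, rose 58.9-fold and 31.3-fold, and its interaction was not called (95% interval -2.10 to 0.27).

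PPARα binds as a pair with RXR to a direct repeat of AGGTCA with 1 base between the copies. To show such letters in reversed or lost genes, the 250 bases upstream of the gene start are printed for Plin2 (chr4:86670060-86670309, minus strand), Acot4 (chr12:84038129-84038378, plus strand) and Creb3l3 (chr10:81092592-81092841, minus strand), all from RefSeq's GRCm38.p6 annotation, read 5′ to 3′ on the strand of the gene. Capitals mark a match to the repeat on either strand with at most 2 mismatches.
Plin2: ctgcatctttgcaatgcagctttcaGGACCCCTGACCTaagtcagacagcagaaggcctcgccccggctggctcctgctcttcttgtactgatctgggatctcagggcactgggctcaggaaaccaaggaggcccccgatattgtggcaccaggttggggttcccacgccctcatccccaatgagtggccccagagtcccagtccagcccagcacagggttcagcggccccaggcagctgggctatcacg
Acot4: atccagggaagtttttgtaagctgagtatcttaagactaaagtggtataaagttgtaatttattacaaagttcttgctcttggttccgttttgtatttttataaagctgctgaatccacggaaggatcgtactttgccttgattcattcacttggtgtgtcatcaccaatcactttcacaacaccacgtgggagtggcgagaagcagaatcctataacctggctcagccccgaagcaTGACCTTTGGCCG
Creb3l3: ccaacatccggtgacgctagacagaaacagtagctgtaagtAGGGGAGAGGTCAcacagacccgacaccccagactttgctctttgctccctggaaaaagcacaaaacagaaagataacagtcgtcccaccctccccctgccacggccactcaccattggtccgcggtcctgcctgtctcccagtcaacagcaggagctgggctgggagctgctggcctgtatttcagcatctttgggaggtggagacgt
The match begins 225 bases before the gene start in Plin2, 13 in Acot4 and 209 in Creb3l3, each with 2 mismatches. Such a match lay in 3.24% of all 32851 upstream windows of this length and in 2.77% of those of tested genes. By class the share was 2.4% for lost, 2.38% for weakened, 2.83% for reversed, 2.82% for amplified and 2.67% for kept genes, all near the background. In the lists it was found for 2 of 19 mitochondrial, 1 of 13 peroxisomal and 0 of 3 ketogenesis genes with a window. A match is only a run of letters, and the known elements of many targets lie outside these 250 bases.

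Genes of the clock moved toward higher signal in fasted AAKO mice. Of 20 tested, 11 were called higher and 0 lower, beside 15% and 18.6% of all genes. The median response was -0.68 in CTRL and 0.29 in AAKO mice, with 6 genes lost, 1 weakened, 1 reversed, 1 amplified, 2 gained and 6 kept. Without CTRL fasted mouse 2, 14 were called higher. All mice were killed at a single time of day, so a shift in phase cannot be told apart from a change in level.

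Ciart, a repressor of the clock (probe at chr3:95682433-95682492, mm9), had signals of -0.63 to 0.91 (median 0.03) in fed CTRL, -4.27 to 0.54 (median -2.30) in fasted CTRL, -2.39 to 0.09 (median -1.24) in fed AAKO and 0.78 to 1.69 (median 1.30) in fasted AAKO mice. Fasted AAKO mice were above all fed AAKO mice and above all fasted CTRL mice, while fasted CTRL mice lay below all fed CTRL mice except for mouse 2 at 0.54. It fell 4.8-fold in CTRL and rose 5.62-fold in AAKO mice (interaction 4.75 ± 0.75 (SE), adjusted p 9.97e-06). Among the PAR bZIP output factors, Dbp fell by 2.22 on the log2 scale in CTRL mice with an AAKO response of -0.30, and Tef by 1.40 with -0.22; neither AAKO response was called. Hlf, the other such factor, was kept, with -0.49 in CTRL and -0.73 in AAKO mice, as was Nfil3, a repressor of the same target genes, with 0.83 in CTRL and 1.75 in AAKO mice and an interaction near the threshold (adjusted p 0.058), called with normexp, quantile normalization or the authors' deposited value table, and without fasted AAKO mouse 2, fed AAKO mouse 1 or 6, fasted CTRL mouse 2 or 6, or fed CTRL mouse 3 or 5.

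The Period genes, repressors of the core loop, differed among themselves. Per2 had signals of 3.98 to 4.13 (median 4.07) in fed CTRL, -0.22 to 1.21 (median 0.57) in fasted CTRL, 3.64 to 4.30 (median 4.00) in fed AAKO and 1.79 to 2.52 (median 1.98) in fasted AAKO mice. In both genotypes all fasted mice were below all fed mice, and all fasted AAKO mice were above all fasted CTRL mice, so the fall of 11.6-fold was weakened to 3.75-fold (interaction 1.63 ± 0.23 (SE), adjusted p 1.91e-06). Per3 lost its fall, with -2.09 in CTRL and 0.41 in AAKO mice, and Per1 gained a rise, with -0.28 in CTRL and 1.18 in AAKO mice. Other probes of Per1 and Per2 gave interactions of 0.16 and 0.30 that were not called, so these results rest on the brightest probe. Other probes of Per3 gave called interactions of 1.18 and 2.15, with AAKO responses of -1.30 and -0.79. The lost fall of Per3 therefore rests on the brightest probe as well.

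Nr1d1, the repressor REV-ERBα, rose by 1.26 in CTRL and 3.95 in AAKO mice and was amplified. Bhlhe40, a repressor that also responds to feeding, fell by 2.09 on the log2 scale in CTRL mice and gave 0.25 in AAKO mice, and Usp2, a rhythmic ubiquitin protease, gave -3.24 in CTRL and -0.66 in AAKO mice. Arntl, the activator BMAL1, rose alike, by 1.75 in CTRL and 1.87 in AAKO mice, with an interaction of 0.11 and a 95% interval of -0.70 to 0.93. Cry1 also was kept, at -0.62 in CTRL and -0.51 in AAKO mice.

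CLOCK and BMAL1 bind the E-box CACGTG. The 250 upstream bases of Ciart (chr3:95882229-95882478, minus strand), Per1 (chr11:69098699-69098948, plus strand) and Cry1 (chr10:85185055-85185304, minus strand), from RefSeq's GRCm38.p6, are shown because all hold this box although their responses were reversed, gained and kept, respectively. Capitals mark the box.
Ciart: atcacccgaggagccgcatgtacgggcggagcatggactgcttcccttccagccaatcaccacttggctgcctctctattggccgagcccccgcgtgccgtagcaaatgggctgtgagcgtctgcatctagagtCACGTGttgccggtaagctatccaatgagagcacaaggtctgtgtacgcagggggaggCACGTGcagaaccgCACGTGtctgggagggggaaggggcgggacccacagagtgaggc
Per1: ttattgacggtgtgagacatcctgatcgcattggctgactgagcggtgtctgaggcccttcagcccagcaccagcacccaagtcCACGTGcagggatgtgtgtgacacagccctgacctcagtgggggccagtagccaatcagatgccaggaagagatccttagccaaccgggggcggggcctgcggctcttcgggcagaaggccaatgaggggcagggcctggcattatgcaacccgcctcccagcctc
Cry1: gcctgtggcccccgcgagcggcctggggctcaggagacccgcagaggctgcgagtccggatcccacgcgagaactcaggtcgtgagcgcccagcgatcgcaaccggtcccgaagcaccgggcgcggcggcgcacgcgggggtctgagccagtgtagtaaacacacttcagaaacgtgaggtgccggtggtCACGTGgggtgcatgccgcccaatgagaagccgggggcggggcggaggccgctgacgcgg
Ciart holds 3 boxes in this window, and Per1 and Cry1 hold 1 each. A CACGTG lay in 6.02% of all upstream windows and in 7.43% of those of tested genes. It was found for 5 of 17 clock genes with a window, and by class in 8.47% of lost, 9.35% of reversed, 7.6% of amplified and 8.4% of kept genes.

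**Figure D4:**
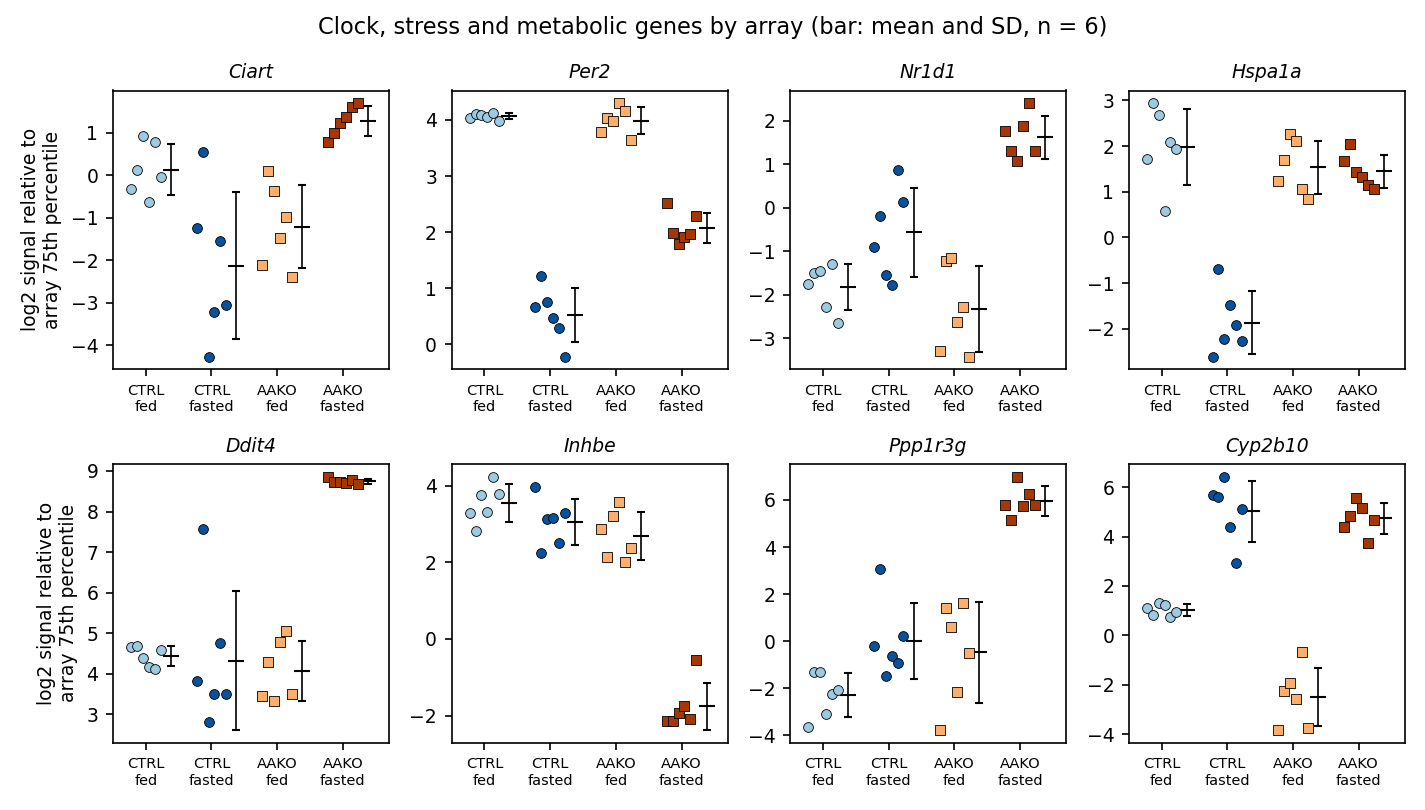
Log2 signal relative to the array's 75th percentile for genes of the clock, stress responses and other groups, 1 point per mouse and 6 mice per group, with bars for the mean and SD of each group. Per2 shows fasted CTRL mice at -0.22 to 1.21 and fasted AAKO mice at 1.79 to 2.52, both below the fed mice.

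Part of the genes of glucose output and amino acid breakdown had a higher response in AAKO mice. Of 18 gluconeogenesis genes 8 were called higher and 2 lower, beside 15% and 18.6% of all genes, with median responses of 0.38 in CTRL and 1.19 in AAKO mice. Of 26 genes of the urea cycle and amino acid metabolism 13 were called higher and 4 lower. Got1, the cytosolic aspartate aminotransferase, had signals of 6.28 to 6.75 (median 6.46) in fed CTRL, 7.50 to 8.90 (median 7.88) in fasted CTRL, 5.59 to 6.62 (median 6.25) in fed AAKO and 9.77 to 10.02 (median 9.90) in fasted AAKO mice. Fasted mice were above fed mice in both genotypes and fasted AAKO mice above fasted CTRL mice, with no overlap. The rise was 2.82-fold in CTRL and 12.8-fold in AAKO mice (interaction 2.18 ± 0.27 (SE), adjusted p 2.23e-07).

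Sds, serine dehydratase, had a CTRL response of 0.17 that was not called and rose 6.18-fold in AAKO mice. Tat, tyrosine aminotransferase, followed the same course with 0.31 in CTRL and 1.41 in AAKO mice. The coactivator Ppargc1b gained a rise, from 0.55 in CTRL, not called, to 2.52 in AAKO mice. The interactions of G6pc and Pck1 were not called. G6pc, glucose-6-phosphatase, rose by 1.16 in CTRL and 1.88 in AAKO mice (interaction 95% interval -0.41 to 1.85). Pck1, PEP carboxykinase, gave 0.29 in CTRL and 0.75 in AAKO mice (95% interval -0.06 to 0.99). Both intervals leave room for a larger AAKO rise. The 2 genes of the list called lower were Pcx and Gcgr. Pcx, pyruvate carboxylase, was reversed, with 0.55 in CTRL and -0.17 in AAKO mice. Gcgr, the glucagon receptor, gained a fall of 0.59 on the log2 scale in AAKO mice.

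Glucocorticoid targets showed a like pattern, with 8 of 16 called higher and 1 lower, beside 15% and 18.6% of all genes, and medians of 0.70 and 1.75. Sgk1, a serum- and glucocorticoid-induced kinase, had signals of 1.79 to 2.46 (median 2.20) in fed CTRL, 2.26 to 3.97 (median 2.72) in fasted CTRL, 2.15 to 2.79 (median 2.29) in fed AAKO and 4.16 to 5.66 (median 5.17) in fasted AAKO mice. All fasted AAKO mice were above all other mice, and fasted and fed CTRL mice overlapped. The responses were 0.71 in CTRL and 2.70 in AAKO mice (interaction 1.99 ± 0.33 (SE), adjusted p 2.03e-05), and the class moved from amplified to gained without CTRL fasted mouse 2. Sult1e1, estrogen sulfotransferase, had a CTRL response of 1.28 that was not called and rose by 4.89 in AAKO mice. Dusp1, a MAP kinase phosphatase, was reversed, with -1.35 in CTRL and 1.54 in AAKO mice. Mt1, metallothionein 1, rose by 3.52 in CTRL and 2.88 in AAKO mice, but its fed mice ranged from 3.92 to 9.81 and the 95% interval of its interaction was -2.59 to 1.33. Cdkn1a, the cell cycle inhibitor p21, was amplified, with 3.96 in CTRL and 6.16 in AAKO mice.

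Ddit4, an inhibitor of mTORC1 that stress and glucocorticoids induce (probe at chr10:59412486-59412545, mm9), had signals of 4.11 to 4.68 (median 4.50) in fed CTRL, 2.81 to 7.58 (median 3.66) in fasted CTRL, 3.34 to 5.05 (median 3.89) in fed AAKO and 8.67 to 8.86 (median 8.72) in fasted AAKO mice. The fasted AAKO values spanned a narrow range above all others, while fasted CTRL mice spread over more than 4 units. Its CTRL response of -0.10 was not called, the AAKO rise was 25.5-fold, and the interaction was 4.78 ± 0.67 (SE) (adjusted p 1.74e-06), or 5.43 without CTRL fasted mouse 2. Chac1, a glutathione-degrading enzyme and ATF4 target, gained a rise of 3.93. Atf5, another factor of that response, went the other way: it rose by 1.66 in CTRL mice, and its AAKO response of -0.12 was not called. In the list of 17 ATF4 response genes, 5 were called higher and 3 lower, beside 15% and 18.6% of all genes.

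Of 18 genes of insulin and FoxO signalling 6 were kept, 6 were undetermined, and 3 were called higher and 3 lower, shares near the 15% and 18.6% of all genes. Igfbp1, an insulin-suppressed secreted binding protein, had signals of 1.39 to 5.80 (median 3.11) in fed CTRL, 7.64 to 9.36 (median 8.06) in fasted CTRL, 4.01 to 8.01 (median 6.02) in fed AAKO and 10.04 to 10.17 (median 10.08) in fasted AAKO mice. Fasted mice were above fed mice in both genotypes, and all fasted AAKO mice were above all fasted CTRL mice. The rise of 27.3-fold in CTRL and 17.7-fold in AAKO mice gave an interaction of -0.62 that was not called (95% interval -2.31 to 1.07). Irs2, the insulin receptor substrate, gave 2.82 in CTRL and 2.38 in AAKO mice.

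Of the 6 called members of the insulin and FoxO list, Sesn1, Inhba and Inhbe had the largest interactions by size on the probes tested. The other 3 lay between -0.47 and 1.29. Among them Foxo3 was reversed, with -0.83 in CTRL and 0.45 in AAKO mice. Other probes of Foxo3 gave called interactions of 3.09 and 3.65, with CTRL responses of -0.30 and 0.09 and AAKO responses of 2.79 and 3.74. The ranking therefore rests on 1 probe per gene, and the reversed class of Foxo3 depends on the probe. Sesn1, a stress-induced inhibitor of mTORC1, had signals of 1.58 to 1.85 (median 1.66) in fed CTRL, 1.77 to 4.68 (median 2.02) in fasted CTRL, 1.49 to 1.83 (median 1.62) in fed AAKO and 5.87 to 6.46 (median 6.11) in fasted AAKO mice. The fasted AAKO mice lay above all others, and among the fasted CTRL mice mouse 2 held the highest value. The interaction was 3.74 ± 0.40 (SE) (adjusted p 2.36e-08), and Sesn1 changed from amplified to gained without that mouse. Inhbe, a secreted activin subunit made by hepatocytes, had a CTRL response of -0.48, not called, and fell 22-fold in AAKO mice. Inhba, a related subunit, gave -0.72 in CTRL and -4.12 in AAKO mice.

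Of 20 lipogenesis genes 15 were called down and 2 up in CTRL mice and 17 down and 1 up in AAKO mice, where 24.1% and 36.1% of all genes were called down. The medians were -1.13 and -1.27. For the interaction 4 were called higher and 4 lower, near the shares of all genes, and 10 genes were kept and 4 weakened. Thrsp, a lipogenic nuclear protein, had signals of 7.63 to 8.87 (median 8.35) in fed CTRL, 2.63 to 5.47 (median 3.45) in fasted CTRL, 7.93 to 8.68 (median 8.49) in fed AAKO and 4.67 to 6.65 (median 6.04) in fasted AAKO mice. Fasted mice lay below fed mice in both genotypes, and the fasted groups overlapped. The fall was 25-fold in CTRL and 6.11-fold in AAKO mice (interaction 2.03 ± 0.56 (SE), adjusted p 0.00521). Srebf1, the master factor of the pathway, was weakened to a lesser extent, with -3.54 in CTRL and -2.69 in AAKO mice. Fasn, fatty acid synthase, gave -2.17 in CTRL and -1.83 in AAKO mice, and Scd1, stearoyl-CoA desaturase, -1.75 in CTRL and -1.76 in AAKO mice; their interactions had 95% intervals of -0.40 to 1.09 and -0.56 to 0.55. Pklr, liver pyruvate kinase, fell by 1.07 on the log2 scale in CTRL mice and gave 0.05 in AAKO mice, with overlapping groups.

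Cholesterol synthesis fell in both genotypes with more exceptions. Of 24 genes 23 were called down in CTRL and 21 in AAKO mice, beside 24.1% and 36.1% of all genes. The medians were -2.13 and -1.82. For the interaction 9 were called higher and 4 lower, beside 15% and 18.6% of all genes, and 11 were kept. Insig1, the membrane anchor that holds back SREBP, had signals of 2.17 to 2.77 (median 2.62) in fed CTRL, -1.55 to -0.62 (median -1.28) in fasted CTRL, 2.24 to 3.30 (median 2.65) in fed AAKO and 0.43 to 1.16 (median 0.82) in fasted AAKO mice. All fasted mice were below all fed mice, and all fasted AAKO mice were above all fasted CTRL mice. The fall was weakened from 12.8-fold to 3.69-fold (interaction 1.79 ± 0.24 (SE), adjusted p 1.18e-06).

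Neighbouring enzymes of the mevalonate branch behaved differently. Mvk, mevalonate kinase, lost its fall, with -2.13 in CTRL and -0.25 in AAKO mice. Pmvk, the next kinase, was reversed: fasted CTRL mice lay at 3.57 to 3.80 (median 3.64), below all fed mice, and fasted AAKO mice at 5.68 to 7.50 (median 6.91), with an interaction of 2.39 ± 0.30 (SE) (adjusted p 3.69e-07). Mvd, the decarboxylase that follows, was kept at -3.45 in CTRL and -3.41 in AAKO mice. Hmgcs1, the cytosolic HMG-CoA synthase, fell further in AAKO mice, by -1.30 in CTRL and -3.07 in AAKO mice, but another of its probes gave an interaction of 0.27.

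Heat shock and ER chaperone genes fell in both genotypes. In the heat shock list 17 of 18 genes were called down in CTRL and 15 in AAKO mice, and 10 were kept. For ER chaperones the numbers were 18, 16 and 12 of 18. Over all genes 24.1% were called down in CTRL and 36.1% in AAKO mice. For the interaction 6 heat shock genes were called lower and 2 higher, and 4 ER chaperones lower and 1 higher. The shares of all genes were 18.6% lower and 15% higher. In both lists the genes called lower had amplified falls on the probes tested. Of the other probes of Dnajb11, 1 gave a called interaction of 2.55 and 1 gave -0.41, not called. The other probes of Sel1l gave -0.18 and -0.00, not called. The calls of these ER chaperones therefore depended on the probe. Hsph1, a cytosolic chaperone, gave -2.88 in CTRL and -3.23 in AAKO mice, Hspa5, the ER chaperone BiP, -1.41 in CTRL and -1.36 in AAKO mice and Sdf2l1, another ER protein, -2.83 in CTRL and -3.07 in AAKO mice. Their interactions, not called, had 95% intervals of -0.93 to 0.23, -0.35 to 0.44 and -1.13 to 0.66.

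Hspa1a and Hspe1 of the heat shock list and Herpud1 of the ER chaperones were called higher for the interaction. Hspe1 fell by 0.49 on the log2 scale in CTRL mice, and its AAKO response of -0.07 was not called. Hspa1a, an inducible HSP70, had signals of 0.58 to 2.94 (median 2.01) in fed CTRL, -2.61 to -0.70 (median -2.07) in fasted CTRL, 0.84 to 2.26 (median 1.47) in fed AAKO and 1.05 to 2.05 (median 1.39) in fasted AAKO mice. Only the fasted CTRL mice were low, and all 6 lay below the other 18. It fell 14.5-fold in CTRL mice, its AAKO response of -0.09 was not called, and the interaction was 3.77 ± 0.53 (SE) (adjusted p 1.93e-06). The probe for Hspa1b, which encodes a nearly identical protein, gave -3.86 in CTRL and -3.47 in AAKO mice and was kept, so that the paralogs cannot both be read from 1 response, and their probes may share signal. Herpud1, a component of ER-associated degradation, was reversed: it fell 3.41-fold in CTRL and rose 1.74-fold in AAKO mice (interaction 2.57 ± 0.34 (SE)).

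Proteasome subunits took a lower course in AAKO mice. Of 24 tested, 19 were called lower and 0 higher, beside 18.6% and 15% of all genes. The medians were 0.05 in CTRL and -0.31 in AAKO mice. The median interaction stayed between -0.46 and -0.43 under the alternative normalizations and without CTRL fasted mouse 2. Psma1, a 20S core subunit, had signals of 4.91 to 5.19 (median 5.11) in fed CTRL, 4.91 to 5.23 (median 4.95) in fasted CTRL, 4.92 to 5.23 (median 5.07) in fed AAKO and 4.10 to 4.21 (median 4.20) in fasted AAKO mice. The fasted AAKO mice were all below the other mice, which overlapped. The CTRL response of -0.10 was not called and the interaction was -0.80 ± 0.09 (SE) (adjusted p 4.44e-08). Psmd4, a ubiquitin receptor of the regulatory particle, rose by 0.97 in CTRL and 0.30 in AAKO mice; of its 2 other probes, 1 gave a called interaction of -0.74 and 1 gave 0.48, not called.

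**Figure D5:**
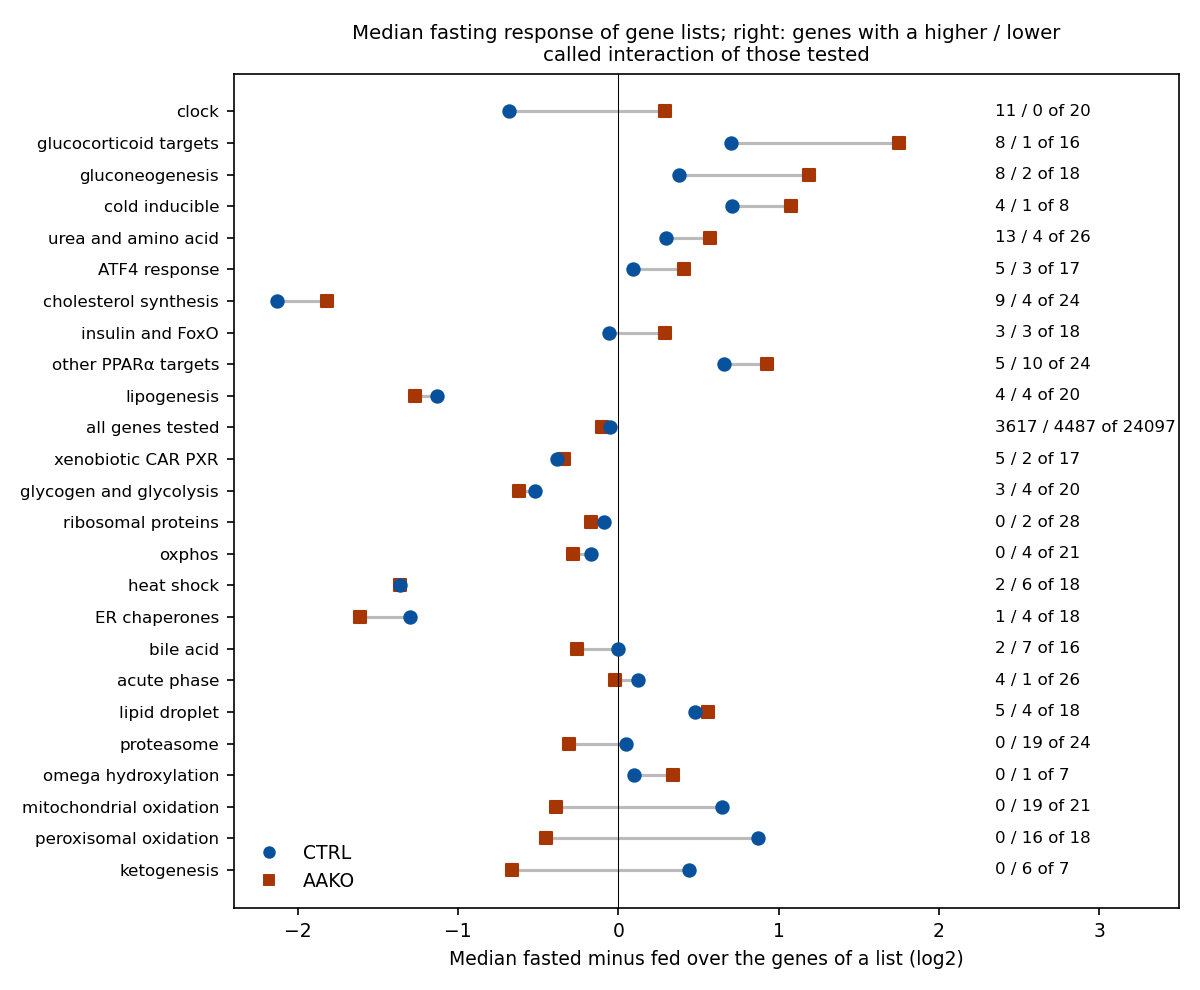
Median log2 fasting response of each gene list in CTRL and AAKO mice, with 1 row per list and, at the right, the number of genes with a higher and a lower called interaction of those tested. The oxidation and ketogenesis lists lie above 0 in CTRL and below 0 in AAKO mice, while cholesterol synthesis lies near -2 in both.

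Among named genes of the largest amplified responses, the drug-metabolising cytochromes Cyp2b10 and Cyp2b9 differed from the rest because their interaction came from the fed state. Cyp2b10 had signals of 0.74 to 1.32 (median 1.03) in fed CTRL, 2.92 to 6.43 (median 5.37) in fasted CTRL, -3.84 to -0.69 (median -2.42) in fed AAKO and 3.76 to 5.55 (median 4.76) in fasted AAKO mice. Fed AAKO mice were below all fed CTRL mice, and the fasted groups overlapped. AAKO minus CTRL was -3.53 in fed mice and -0.29 in fasted mice, and the interaction was 3.24 ± 0.81 (SE) (adjusted p 0.00228). Cyp2b9 gave -3.47 and -0.29, but the genes are close paralogs. They belong to the 52 amplified genes of 2939 in which the genotype difference was no larger in fasted mice.

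Rgs16, a regulator of G protein signalling, and Ppp1r3g, a glycogen-targeting subunit of protein phosphatase 1, had the other leading amplified responses. Rgs16 had signals of 0.33 to 2.97 (median 1.17) in fed CTRL, 2.52 to 5.94 (median 4.28) in fasted CTRL, -1.90 to 4.26 (median 0.76) in fed AAKO and 7.58 to 8.22 (median 7.94) in fasted AAKO mice. Fasted AAKO mice were above all others, while fed AAKO mice spread over about 6 units. It rose by 2.74 in CTRL and 6.93 in AAKO mice (interaction 4.19 ± 1.21 (SE), adjusted p 0.00738). Ppp1r3g gave 2.30 in CTRL and 6.41 in AAKO mice, with fasted CTRL mouse 2 at 3.07 and the next highest at 0.22. Its interaction was 4.78 without that mouse, which turned the class to gained. Map3k6, a MAP kinase kinase kinase, gave 1.25 in CTRL and 5.73 in AAKO mice and also turned to gained.

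Several of the strongest gained responses were rises from near background, while Ddit4, described above, rose from a higher signal. Pappa2, a protease of insulin-like growth factor binding proteins, was at least 59-fold higher in fasted AAKO than in fasted CTRL mice, where it was not well above background. The same bound was 18.5-fold for the long noncoding RNA Rubie and 10.3-fold for Scin, an actin-severing protein. Each bound sets the bright group's mean against the lowest signal among probes well above background on the dim arrays, or the dim probe's own where that was higher. A second Pappa2 probe gave a smaller called interaction, 3.48 beside 5.39 on the brightest probe. The bound of 59-fold is that of the brightest probe. Slc7a6, a cationic amino acid exchanger, had signals of -6.02 to -4.58 (median -4.91) in fed CTRL, -6.50 to -0.83 (median -4.52) in fasted CTRL, -6.14 to -4.47 (median -5.14) in fed AAKO and 0.09 to 0.93 (median 0.67) in fasted AAKO mice. The fasted AAKO mice were above all others, with an interaction of 5.08 ± 0.73 (SE) (adjusted p 2.44e-06). Fibin, a secreted protein, and Rasd2, a small GTPase, had interactions of 4.69 and 4.53.

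Gained falls among the 10 lowest interactions were those of Inhbe, described above, Atp2b2, a plasma membrane calcium pump, Gngt1, a G protein gamma subunit, and Celsr1, a planar polarity cadherin. Atp2b2 was at least 5.48-fold and Gngt1 at least 5.31-fold higher in fasted CTRL than in fasted AAKO mice, where both were not well above background; a second Atp2b2 probe gave an interaction of -1.06 that was not called. Celsr1 had signals of 2.41 to 2.90 (median 2.73) in fed CTRL, 0.58 to 2.39 (median 2.30) in fasted CTRL, 2.21 to 3.35 (median 3.19) in fed AAKO and -1.70 to -1.15 (median -1.50) in fasted AAKO mice. Every fasted AAKO mouse lay below every other mouse. The fall was 20.6-fold in AAKO mice, and the CTRL response of -0.70 was not called.

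Fgf21, Ly6d and Spon2 were among the lost and reversed genes with the lowest interactions. Fgf21, the fasting hormone of the liver and a member of the ketogenesis list, had signals of 0.73 to 2.98 (median 2.77) in fasted CTRL and -5.17 to -1.39 (median -3.33) in fasted AAKO mice and an interaction of -5.18. Ly6d, a GPI-anchored surface protein, rose 10.9-fold in CTRL mice and had an AAKO response of -0.37 that was not called. Spon2, a secreted matrix protein, had signals of -1.35 to -0.54 (median -1.14) in fed CTRL, -0.02 to 2.17 (median 1.83) in fasted CTRL, -1.28 to 0.08 (median -0.65) in fed AAKO and -3.53 to -2.66 (median -2.86) in fasted AAKO mice. Fasted AAKO mice were below all other mice, fasted CTRL mice were above all fed CTRL mice, and the interaction was -4.86 ± 0.37 (SE) (adjusted p 7.38e-11).

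Srgap3, a GTPase-activating protein, and Tlr12, an innate immune receptor, were reversed in the same direction, with -4.77 and -4.06. Rad51b, a DNA repair protein, gave -4.70, but another of its probes gave a called interaction of 1.91, so its direction is not settled. Hsd3b1, a steroid dehydrogenase, was reversed the other way, with -2.89 in CTRL and 1.40 in AAKO mice. Its other probe gave an interaction of 1.22, not called, with responses of -3.34 in CTRL and -2.12 in AAKO mice. The reversal of Hsd3b1 therefore rests on the brightest probe.

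Acute phase genes were mostly undetermined. Of 26 tested, 4 were called higher and 1 lower, beside 15% and 18.6% of all genes, and 19 had no class. Saa1, serum amyloid A1, ranged from 4.81 to 10.64 over the 24 mice, and its interaction of 0.51 had a 95% interval of -2.38 to 3.41. Il1r1, the interleukin-1 receptor, gained a rise of 2.83, with fasted AAKO mice above all others, and Steap4, a metalloreductase, lost a fall of 2.60 on the log2 scale.

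Neutrophil markers were measured beside these genes. The summed signal of 8 markers had medians of 1.43 in fed CTRL, 1.58 in fasted CTRL, 1.60 in fed AAKO and 5.16 in fasted AAKO mice, with ranges of 0.85 to 2.74, 0.66 to 6.35, 0.88 to 5.59 and 3.28 to 7. Of the 8, 1 was called for the interaction: Mmp8, neutrophil collagenase, at 1.84 ± 0.67 (SE) (adjusted p 0.0338), a call that was kept in 14 of 24 leave-outs. It was lost without fasted AAKO mouse 1 or 3, fed AAKO mouse 3, 4 or 5, fasted CTRL mouse 1, 3, 4 or 6, or fed CTRL mouse 4. Retnlg and S100a8, abundant neutrophil genes, gave 2.79 and 2.53, not called, with 3.75 and 3.45, called, without CTRL fasted mouse 2; Retnlg was also called without fed AAKO mouse 6.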

How the data were processed

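Agilent scanner files of 36 arrays were used, 24 of them for the interaction. The deposited intensity values are processed signals; the file headers name Agilent Feature Extraction, version 10.10.1.1, as the scanner software. Outlier-marked spots (0.127%) and control spots were left out, spots of a probe were averaged, and each array's 75th percentile was subtracted on the log2 scale. Genes (1 probe each, the brightest) were kept where well above background on at least 5 of 6 arrays of 1 group, leaving 24097 of 37061. Of 56605 probes, 32994 were named through RefSeq's GRCm38.p6 table, and probe positions are those of the files (mm9); exon or UTR was not determined for any probe. The authors' deposited value table holds log2 values of 36898 probes; its columns each correlated best with their own array (lowest r 0.99874), and how those probes were chosen is not given in the sources used here. Array number and signal over background limit the precision.

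All 36 arrays entered 1 limma 3.58.1 fit (R 4.3.3) with 6 group means and the wash batch of the labels as a factor; both wash batches hold 3 arrays of each of the 4 groups. The 95% intervals are from this fit. Replicate numbers did not pair the samples, since same-numbered arrays deviated together with r from -0.30 to 0.36 (median 0.03). The code was tested on simulated data. Members and gene lists were chosen with earlier results of these data known. Genes named are the 10 highest and 10 lowest called interactions that kept sign and call in all 24 leave-outs and, per class, the 4 with the largest response, under conditions that leave out unnamed transcripts, plus list members picked for the text; some genes that these choices would name are not reported here. Alternatives were normexp background correction (offset 50), quantile normalization, the authors' table, all probes, the mean over probes, single wash batches, slide and replicate blocks, and leaving out each array.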

Additional observations from a re-analysis of the deposited data

Results flagged for a closer look

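In each group of 6 the highest or lowest value of the 109 named genes was set against its nearest neighbour (Dixon's test at 95%). Of 436 such sets 35 held a value that far from the rest, and chance gives about 1 in 20. CTRL fasted mouse 2 gave 14 of the values. It was high for Chac1 (3.04, next 0.79), Map3k6 (3.67, next 0.65), Mmp8 (0.37, next -2.56), Ppargc1b (3.01, next 1.84), Ppp1r3g (3.07, next 0.22) and Sesn1 (4.68, next 2.19). The same mouse was low for Bdh1 (4.33, next 5.46), Celsr1 (0.58, next 2.12), Crot (5.36, next 6.04), Gngt1 (-5.25, next -2.83), Hadha (2.50, next 2.78), Nr1h4 (5.67, next 6.11), Slco1b2 (5.99, next 7.12) and Spon2 (-0.02, next 1.41). In all 14 its value lay on the side of the fasted AAKO mean. Its place on the first principal component comes from the same arrays, so this is not a separate observation.

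Other fasted CTRL values were Acot1 5.41, Dbp 4.04 and Steap4 -0.64 in mouse 5 and Psma1 5.23 in mouse 3. In fed CTRL mice they were Acat1 4.84, Inhba 1.54 and Pnpla2 4.10 in mouse 4, Hsd3b1 -1.57 and Mvd 2.59 in mouse 1, Psma1 4.91 in mouse 2, and Mt1 9.64, Saa1 10.14 and Srebf1 6.48 in mouse 6. In fed AAKO mice they were Hspa1b 4.39 in mouse 4, Retsat 3.47 in mouse 6, and Scin -5.79 and Tat 7.86 in mouse 1. In fasted AAKO mice they were Atf5 7.75 and Srebf1 4.09 in mouse 3, Herpud1 7.60 in mouse 1 and Inhbe -0.54 in mouse 6.

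The genotypes differed in their fasting response, by the limma interaction test, for 8104 genes. Among the reversed responses, the 4 with the largest CTRL response that met the naming rule were Rad51b (interaction -4.70), Hsd3b1 (4.29), Srgap3 (-4.77) and Spon2 (-4.86). The probes of Rad51b disagreed in direction. The other probe of Hsd3b1 gave -3.34 in CTRL and -2.12 in AAKO mice, so its reversal rests on the brightest probe.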

How the results depend on the processing

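The number of genes called for the interaction was 8104 and lay within 1.5 times of that in all alternatives but 3. With 1 test per probe over all probes it was 12479, within wash batch 1 alone 5070 and within wash batch 2 alone 3121. These fits test more features or use fewer arrays. Of the calls that the batches share with the full fit (4741 and 2937) 0 had the opposite sign. The same arrays enter both fits, so this is no independent check. By probe, the CTRL response was called 16035 times and the AAKO response 23627 times, with 4536 amplified, 5492 gained and 7638 kept. Within wash batch 1 the CTRL response was called for 5955 genes, with 472 lost, 47 weakened, 242 reversed, 1182 amplified and 3145 kept; within wash batch 2, with 392 lost, 80 weakened, 153 reversed, 727 amplified, 1744 gained and 25 with neither. Leaving out 1 array at a time gave 7464 to 9158 interaction calls, 9945 to 10684 CTRL calls and 14864 to 15428 AAKO calls, with 738 to 949 lost, 178 to 247 weakened, 463 to 810 reversed, 2649 to 2923 amplified, 3221 to 4210 gained, 98 to 134 neither and 4239 to 5261 kept. With the replicate number as a block, although the numbers did not pair the samples, the interaction was called for 8058 genes, the CTRL response for 10443 and the AAKO response for 15274, with 840 lost, 207 weakened, 536 reversed, 2921 amplified, 3431 gained and 4910 kept. For the 109 named genes over 37 alternatives, 3969 values kept direction and call, 46 lost the call, 15 gained one (10 of them Nfil3) and 0 reversed, and 80 genes kept theirs throughout. Calls of Acot3, Angptl4, Cirbp, Cyp2b9, Ppp1r3g, Pklr, Rgs16 and Thrsp were lost within either wash batch alone, those of Cyp2b10, Dbp, Nr1d1, Per3 and Srebf1 within batch 1, those of Cdkn1a, Chac1, Hilpda, Il1r1, Per1, Ppargc1b, Steap4, Sult1e1 and Usp2 within batch 2, and those of Rad51b, Cirbp and Hmgcs1 with the mean over probes. Probes near background limit the smallest fold that can be seen, and their folds are bounds.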

Other observations

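Of 16 bile acid genes 7 were called lower and 2 higher for the interaction, beside 18.6% and 15% of all genes. Nr1h4, the bile acid receptor FXR, was reversed, with 0.74 in CTRL and -0.71 in AAKO mice. All 6 fasted AAKO mice (4.36 to 5.23) were below all fasted CTRL mice (5.67 to 6.30). Another probe of Nr1h4 gave a called interaction of -1.47, with 0.13 in CTRL and -1.34 in AAKO mice. The size of its CTRL rise therefore depended on the probe. Slco1b2, a hepatic uptake transporter for bile acids and other anions, fell by 0.74 on the log2 scale in CTRL and by 2.38 in AAKO mice (interaction -1.65 ± 0.21 SE, limma adjusted p 4.53e-07). Cyp8b1, the sterol 12-alpha-hydroxylase, was kept at 2.03 and 2.22. Cyp7a1, the rate-limiting enzyme of bile acid synthesis, had an interaction of 0.89 that was not called, with a 95% interval of -0.33 to 2.11.

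Cold-inducible RNA-binding proteins rose in fasting: of 8 genes 6 were called up in CTRL and 7 in AAKO mice, beside 19.7% and 27.5% of all genes. For the interaction 4 of them were called higher and 1 lower, beside 15% and 18.6% of all genes. Cirbp rose by 3.43 in CTRL and 4.46 in AAKO mice, and of its 2 other probes, 1 gave a called interaction of 0.96 and 1 gave -0.42, not called. Rbm3 rose by 0.64 and 1.05, with an interaction of 0.41 that was not called; 2 of its other probes gave 0.36 and 0.37, not called, and 1 gave a called -2.94, so its direction is not settled. Ribosomal protein and oxidative phosphorylation genes moved little: 2 of 28 and 4 of 21 were called lower, 0 higher, with median interactions of -0.08 and -0.09 that lay near 0 (-0.02 and -0.00) in the authors' deposited value table. Glycogen and glycolysis genes were called higher in 3 and lower in 4 of 20, near the 15% and 18.6% of all genes. Those of xenobiotic metabolism were called higher in 5 and lower in 2 of 17. Kupffer cell markers had 0 calls of 11 for the interaction (limma, adjusted p under 0.05), with a median interaction of -0.10.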
